A study of Mus musculus with 41 samples.

Results

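The neuropeptide α-CGRP was added on its own to cultured group 2 innate lymphoid cells (ILC2s) of the mouse small intestine, and the response was read over all genes of the bulk RNA libraries. The comparison takes 7 of the 41 samples of the series, chosen by their labels: 4 libraries with CGRP and 3 in base medium, out of 13 bulk libraries. Each library came from 250 KLRG1+ ILC2s sorted from the intestine of wild-type female BALB/cJ mice aged 8 weeks. Every culture, controls included, lasted 3 hours and contained IL-2 (100 ng/ml) plus IL-7 (100 ng/ml), so base medium here means IL-2 and IL-7 with nothing else added. The CGRP group received α-CGRP at 0.4 µg/ml. The other 6 bulk libraries are 3 with IL-25 at 100 ng/ml and 3 with IL-25 and CGRP at these same doses, and they serve here to ask whether the response to CGRP differs when IL-25 is present and where CGRP and IL-25, each added alone, differ. Nothing in the labels ties a library to its own animal or culture, and the p-values below therefore reflect library-to-library spread alone, which could be technical.

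α-CGRP is a peptide made from the Calca gene by sensory neurons of the gut, and ILC2s themselves transcribe Calca. Its receptor is a pair, the G-protein-coupled receptor Calcrl with the single-pass partner Ramp1. The receptor couples to Gs, adenylyl cyclase then raises cyclic AMP, cyclic AMP activates protein kinase A, and that kinase phosphorylates the transcription factor CREB and releases its CRTC coactivators. CREB binds a short DNA element near the start of its target genes, and many of those targets, such as Crem, Pde4b and Rgs2, feed back on the pathway. ILC2s are tissue-resident lymphocytes without antigen receptors that secrete IL-5, IL-13 and amphiregulin when alarm cytokines such as IL-25 or IL-33 reach them, and they depend on IL-7, IL-2 and the transcription factor Gata3.

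The 7 libraries held 1966212 to 5621532 expected counts in base medium and 4562896 to 6655725 with CGRP after the ribosomal RNA gene Rn45s was left out, and that gene took 69.9% to 77.4% of the full totals in base medium and 57.5% to 71.7% with CGRP. Levels are given as CPM (expected counts scaled to a common library size), adjusted by TMM factors, which were 1.09 to 1.13 in base medium and 0.909 to 0.984 with CGRP. The labelled cell type was checked on 13 ILC2 markers, none of which was at 0 in all libraries of a group. Their summed level was 6412 to 7376 CPM in base medium and 12045 to 15404 CPM with CGRP. Calca, whose values are given below, was the largest part of it in every library. A higher sum is therefore no measure of how many cells were ILC2s. Of the 13, 3 rose and 1 fell (Gata3, Il5 and Areg, and Il2ra, described below), against 1.06% and 0.396% of all genes. When 1 library was left out 1 to 3 rose. Granulocyte markers summed to at most 4.52 CPM, and B and plasma cell markers to at most 46.3 CPM, in the 7 libraries. Stromal and endothelial markers summed to 74.6 to 105 CPM in base medium and 48.5 to 66.6 CPM with CGRP, without overlap, mostly from Pecam1, and all 4 tested members had negative log2 fold changes. Epithelial markers summed to 144 to 191 CPM and 96.7 to 153 CPM, mostly from Epcam, with 7 of 8 tested members negative (median −1.04). ILC3 markers summed to 174 to 489 CPM and 275 to 668 CPM, mostly from Il22 and Ncr1, with 6 of 6 tested members positive. Il22 varied within base medium, from 15.7 to 341 CPM. T cell markers summed to 84.0 to 92.6 CPM and 63.9 to 104 CPM. Mast cell markers summed to 120 to 212 CPM and 145 to 189 CPM, mostly from Kit. None of the tested members of these 5 lists was called by edgeR or DESeq2, and edgeR called 1 ILC3 marker higher with no filter on low counts and with only the groups compared. The part of other cell types in the results below was not tested. Markers of natural killer cells and ILC1s summed to 866 to 1073 CPM in base medium and 1120 to 1781 CPM with CGRP, most of it from the granzyme gene Gzma, and 0 of their 9 tested members were called. CGRP replicate 2 stood apart. Its mean correlation with the other libraries of its group was 0.861 against 0.893 to 0.903 for the other 3, and its macrophage and dendritic cell markers summed to 384.7 CPM against 78.6 to 116 CPM in the other CGRP libraries and 87.4 to 110 CPM in base medium. Outside CGRP replicate 2 most of that sum came from Xcr1. Of the 4 tested members of the macrophage and dendritic cell list 0 were called, and 1 was called higher without CGRP replicate 3 or base medium replicate 2. The macrophage lysozyme gene Lyz2 was at 229 CPM in CGRP replicate 2, at 5.56 CPM in replicate 4 and at 0 in replicates 1 and 3. List counts are given with their values when a library is left out, CGRP replicate 2 included, where these differ. The other list counts were the same without CGRP replicate 2.

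CGRP changed 184 of 12618 genes tested (1.46%): 134 rose (1.06%) and 50 fell (0.396%), by edgeR's quasi-likelihood test with Benjamini-Hochberg adjustment at 0.05. The median log2 fold change over all genes tested was 0.000731. The genes called higher with the lowest p were Akap12, Tgm2 and Pdcd1, and among the genes called lower they were Tanc2, Polr1b and Il2ra. The count depended on the base medium libraries: it was 105 without base medium replicate 1, 64 without replicate 2 and 90 without replicate 3, and 124 to 207 when 1 CGRP library was left out. Without CGRP replicate 2 it was 207, of which 148 were among the 184. The shares of 1.06% and 0.396% belong to the edgeR fit with all libraries. List counts below with 1 library left out are to be read beside the totals just given. Those by DESeq2 are to be read beside its 511 called genes. The libraries were made without strand, and 57 of the 184 genes share exonic bases with another annotated gene, whose reads cannot be told apart from theirs. In the genes of the paragraphs below this holds for Crem, Ramp3, Tgm2, Il5, Gata3, Dusp1, Furin, Tnfrsf18, Gpr65, Cdkn1a, Hif1a, Gapdh, Dnaja1, Tinf2, Agpat9, Htra2, Usp40, Gfi1, Il17rb, Tshz2 and Btg3. In bulk libraries fewer cells of a type and less RNA per cell cannot be told apart.

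**Figure D1:**
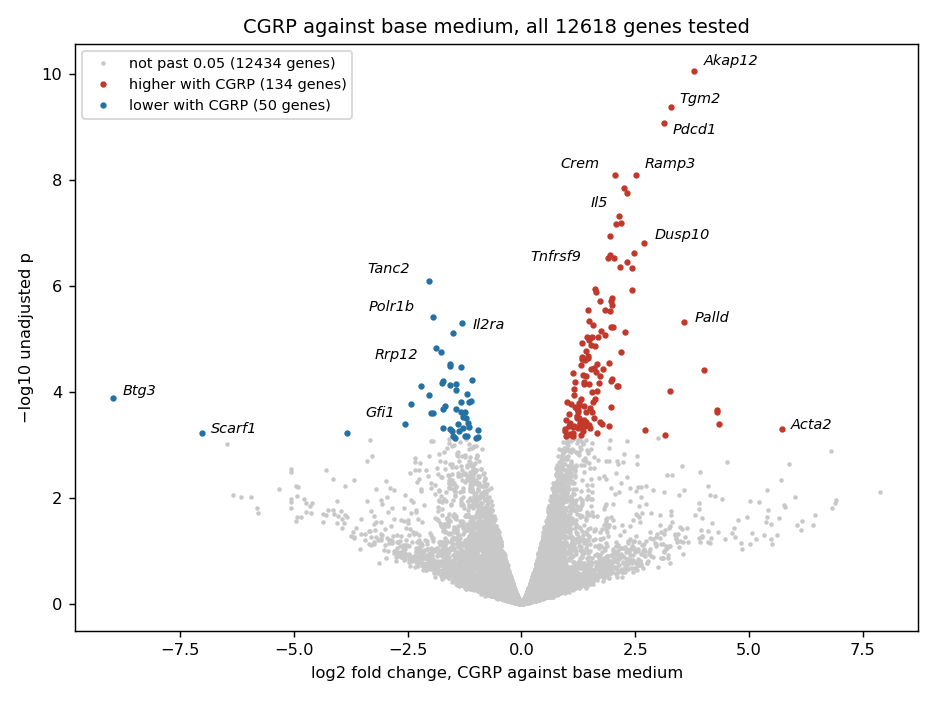
Each point is 1 of 12618 genes: the x axis is the log2 fold change of CGRP against base medium and the y axis is −log10 of the unadjusted p. The 134 genes called higher are red and the 50 called lower are blue. Akap12, Tgm2 and Pdcd1 stand at the top right, and Scarf1 and Btg3, far to the left, have no count in any CGRP library.

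Neither gene of the CGRP receptor, Calcrl or Ramp1, passed the test, while Ramp3, another partner of Calcrl, rose. Ramp3 (chr11:6658521-6677475 on mm10, plus strand), a receptor partner that turns Calcrl into a receptor for the related peptide adrenomedullin and also joins the calcitonin receptor, was at 336, 289 and 423 CPM in base medium and at 1866, 2261, 1825 and 2034 CPM with CGRP. Every CGRP library lay above every base medium library, a log2 fold change of 2.51 ± 0.29 (SE; adjusted p = 2.1e-05). Calcrl was at 17.2, 27.4 and 25.5 CPM in base medium and at 25.0, 29.6, 30.7 and 13.5 CPM with CGRP. These ranges overlap (log2 fold change 0.08 ± 0.45, adjusted p = 0.97), and with standard errors of this size a modest change in Calcrl was not detectable. Ramp1 was at 56.8, 26.1 and 79.1 CPM in base medium and at 16, 38.4, 44.4 and 41.1 CPM with CGRP, also with overlapping ranges (−0.64 ± 0.41, adjusted p = 0.57). The peptide's own gene Calca was at 2431, 1748 and 2141 CPM in base medium and at 4242, 6886, 2998 and 4576 CPM with CGRP. All 4 CGRP libraries lay above the base medium libraries, but the log2 fold change of 1.15 ± 0.30 just missed the threshold (adjusted p = 0.051), and it passed without CGRP replicate 3 (0.024), with DESeq2 (0.0060) and with no filter on low counts (0.0056). In the list of 9 CGRP ligand and receptor genes, 6 were tested, 1 rose and 0 fell, with or without CGRP replicate 2, against 1.06% and 0.396% of all genes.

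None of 20 tested genes of the Gs and cyclic AMP machinery, among them Gnas, the adenylyl cyclases, the protein kinase A subunits, Creb1 and the CRTC coactivators, was called in either direction by edgeR (median log2 fold change −0.04). DESeq2 called 1 higher and 1 lower, and edgeR called 1 higher without CGRP replicate 3 and 0 in each of the other 6 leave-one-out fits. By unadjusted p, 2 of the 20 were under 0.05, and the lowest adjusted p was that of Prkar1a, the regulatory subunit that holds protein kinase A inactive, whose log2 fold change was 0.92 (adjusted p = 0.055).

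Of 26 tested genes known as targets of cyclic AMP and CREB, 7 rose and 0 fell, against 1.06% of all genes called higher, 25 of 26 had a positive log2 fold change, and the median was 0.82 against 0.000731 over all genes. For 13 of the 26 all CGRP libraries lay above all base medium libraries, against 6.99% of all genes. The number that rose depended on single libraries: it was 3, 1 and 4 without base medium replicates 1, 2 and 3, and 5, 9, 7 and 6 without CGRP replicates 1 to 4. The number called over all genes also fell without any of the base medium libraries, as given above. Crem, which encodes the CREB-related repressor ICER from an internal promoter, was at 387, 339 and 412 CPM in base medium and at 1600, 1518, 1693 and 1460 CPM with CGRP (2.05 ± 0.24, adjusted p = 2.1e-05). Areg, the gene of the epidermal growth factor family ligand amphiregulin, went from 20.8, 18 and 28.8 CPM to 76.6, 43.2, 81.6 and 80.0 CPM (1.63 ± 0.32, adjusted p = 0.0077). CGRP replicate 2 was the low one of the 4, and still above base medium. Dusp1, a phosphatase that inactivates MAP kinases, went from 31.6, 18.4 and 14.9 CPM to 59.5, 60.7, 76.2 and 68.7 CPM (1.61 ± 0.35, adjusted p = 0.017). The other 4 were Sik1, a kinase that keeps CRTC coactivators out of the nucleus (1.67 ± 0.42, adjusted p = 0.044), Pde4b, a phosphodiesterase that degrades cyclic AMP (1.37 ± 0.29, 0.011), Nfil3, a transcription factor that ILC precursors need (1.37 ± 0.28, 0.011), and Rgs2, a brake on G-protein signalling (1.33 ± 0.25, 0.0051). Fos missed the threshold (1.56, adjusted p = 0.055), as did Nr4a2 (1.15, 0.20) and Nr4a1 (0.48 ± 0.28, 0.53). Nr4a1 was at 104 to 244 CPM in base medium and 177 to 314 CPM with CGRP, so its ranges overlapped, and Egr1 was the lone negative member (−0.76, adjusted p = 0.41). Crem was called in every leave-one-out fit. The calls of Areg and Pde4b were lost without base medium replicate 1 (adjusted p 0.057 and 0.061) and without replicate 2 (0.091 and 0.11), that of Dusp1 without base medium replicates 2 and 3 (0.14 and 0.13), and that of Rgs2 without base medium replicate 2 (0.094). Nfil3 lost its call without any of the 3 base medium libraries or CGRP replicate 1 (0.054 to 0.085), and Sik1 without any of them or CGRP replicate 1, 2 or 4 (0.077 to 0.27).

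**Figure D2:**
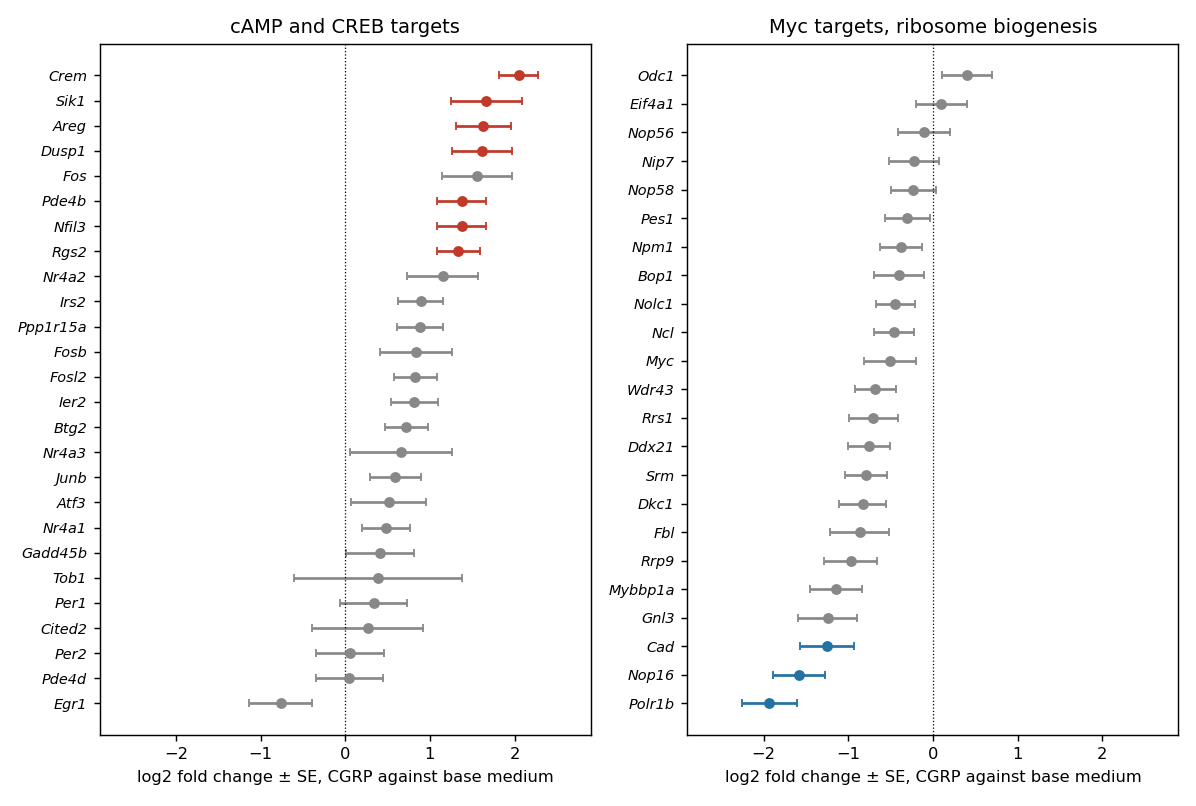
Points are log2 fold changes of CGRP against base medium with SE bars, for the 26 tested cyclic AMP and CREB targets (left) and the 23 tested Myc target and ribosome biogenesis genes (right), red where called higher and blue where called lower. On the left 25 of 26 points lie above 0 with Crem at the top, and on the right 21 of 23 lie below 0 with Polr1b at the bottom.

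The DNA element that CREB binds was looked for in the promoters of the called genes, taken as 250 bases before to 50 bases after each RefSeq start on GRCm38.p6. The full element TGACGTCA, which reads the same on both strands, was present in 5 of the 103 called-higher genes with a promoter in the table (4.85%), in 0 of 42 called-lower genes and in 358 of 10011 tested genes (3.58%). Its core TGACG, searched on both strands and contained in every full element, was present in 41.7%, 28.6% and 34.8% of these. Crem and Sik1, among other called-higher genes, had no promoter to search, so nothing is known here of the element in them. The share among called-higher genes is near that of all genes, and a match describes letters, not binding. The 5 promoters with the full element are shown because they belong to genes that rose and hold the element close to the start, with the full element and each core match on either strand in capitals. They are those of Arl4d (chr11:101665291-101665590, plus strand), Tubb2a (chr13:34077959-34078258, minus strand), Tinf2 (chr14:55681768-55682067, minus strand), Areg (chr5:91139349-91139648, plus strand) and Dusp1 (chr17:26508423-26508722, minus strand). The sequences are of the reference strain, not of the BALB/cJ mice used, and are written in the direction of transcription.
Arl4d: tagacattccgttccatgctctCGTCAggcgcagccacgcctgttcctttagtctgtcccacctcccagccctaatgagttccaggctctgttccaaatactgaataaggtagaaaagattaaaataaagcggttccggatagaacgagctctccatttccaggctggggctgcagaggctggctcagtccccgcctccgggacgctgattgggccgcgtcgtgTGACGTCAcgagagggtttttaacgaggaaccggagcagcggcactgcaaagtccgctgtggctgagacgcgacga
Tubb2a: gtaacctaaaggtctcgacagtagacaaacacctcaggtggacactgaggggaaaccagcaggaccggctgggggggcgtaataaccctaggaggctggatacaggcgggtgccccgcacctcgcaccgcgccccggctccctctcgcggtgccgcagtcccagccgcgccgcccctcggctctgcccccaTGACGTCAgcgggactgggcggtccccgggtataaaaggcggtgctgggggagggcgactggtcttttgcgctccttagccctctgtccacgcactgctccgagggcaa
Tinf2: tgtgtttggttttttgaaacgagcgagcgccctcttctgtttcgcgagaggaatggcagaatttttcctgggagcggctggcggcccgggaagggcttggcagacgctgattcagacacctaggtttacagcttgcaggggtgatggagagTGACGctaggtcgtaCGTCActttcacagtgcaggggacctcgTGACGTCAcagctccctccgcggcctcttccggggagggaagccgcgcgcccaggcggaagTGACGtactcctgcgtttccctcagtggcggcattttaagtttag
Areg: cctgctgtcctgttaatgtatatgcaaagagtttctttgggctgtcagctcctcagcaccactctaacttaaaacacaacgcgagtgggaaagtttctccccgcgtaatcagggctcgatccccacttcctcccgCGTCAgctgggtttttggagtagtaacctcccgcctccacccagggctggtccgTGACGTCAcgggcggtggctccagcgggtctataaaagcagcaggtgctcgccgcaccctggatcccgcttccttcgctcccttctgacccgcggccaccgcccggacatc
Dusp1: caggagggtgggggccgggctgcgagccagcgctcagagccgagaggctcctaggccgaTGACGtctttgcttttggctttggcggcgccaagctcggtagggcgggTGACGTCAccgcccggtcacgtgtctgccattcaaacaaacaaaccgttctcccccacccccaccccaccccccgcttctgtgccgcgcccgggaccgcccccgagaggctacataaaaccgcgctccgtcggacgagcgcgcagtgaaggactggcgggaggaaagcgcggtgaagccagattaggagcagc
Tubb2a, a β-tubulin, went from 9.51, 15.7 and 14.2 CPM to 59.8, 88.4, 61.9 and 74.7 CPM (2.44 ± 0.36, adjusted p = 0.00031). The element begins 26 bases before the start of Arl4d, 59 before Tubb2a, 56 before Tinf2, 61 before Areg and 143 before Dusp1. Arl4d, a small GTPase of the ARF family, was at 0.514, 0.449 and 1.47 CPM in base medium and at 11.9, 17.9, 10.8 and 18.4 CPM with CGRP (4.02 ± 0.80, adjusted p = 0.0073, and 0.053 and 0.066 without base medium replicates 1 and 2). Tinf2, a subunit of the shelterin complex that caps telomeres, went from 35.7, 28.8 and 58.3 CPM to 232, 218, 204 and 165 CPM (2.31 ± 0.33, adjusted p = 0.00027) and kept its call in every leave-one-out fit.

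Among genes that hold cyclic AMP signalling back, 4 of 16 tested rose and 0 fell, against 1.06% and 0.396% of all genes. The 4 were Crem, Sik1, Pde4b and Rgs2, which the target list holds too. The count was 2, 1 and 3 without base medium replicates 1, 2 and 3, and 3 or 4 with 1 CGRP library left out. Other phosphodiesterases did not pass: Pde4d stood at a log2 fold change of 0.05 (adjusted p = 0.98), Pde3b at 0.19 (0.89), and Pde7a at −1.05 (0.10). The gene with the lowest p of all, Akap12 (chr10:4266380-4359470, plus strand), encodes a scaffold that tethers protein kinase A at the membrane. It was at 14.1, 19.8 and 8.02 CPM in base medium and at 174, 202, 158 and 225 CPM with CGRP, a 13.9-fold difference with no overlap (3.80 ± 0.34, adjusted p = 1.1e-06). Dusp10, a phosphatase of the stress kinases p38 and JNK, went from 17.5, 16.2 and 11.5 CPM to 118, 58.0, 135 and 73.5 CPM (2.68 ± 0.37, adjusted p = 0.00016). Both kept their calls in every leave-one-out fit. Dusp10 and Dusp1 were the 2 of 15 tested dual-specificity phosphatases that rose, and 0 fell, against the same 1.06% and 0.396% of all genes. That count was 1 without base medium replicate 2 or 3. Among receptor genes for other mediators, Adora2a rose. Adora2a, an adenosine receptor coupled to Gs, went from 63.8, 68.3 and 78.1 CPM to 225, 126, 272 and 192 CPM (1.54 ± 0.28, adjusted p = 0.0035). The proton-sensing receptor Gpr65, also linked to Gs, is listed with chemokine receptors and is given there. The prostaglandin E2 receptors Ptger2 and Ptger4 had negative log2 fold changes that did not pass (−1.35 and −1.02, adjusted p = 0.055 and 0.092). Of the 11 tested receptor genes for other mediators 0 were called lower by edgeR. DESeq2 called 2 lower, as did edgeR with no filter on low counts. With RLE factors, upper-quartile factors or the filter of 5 CPM in 3 libraries, 1 was called lower.

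Il5 rose, while Il13 and Il4 did not pass the test. Il5 (chr11:53720794-53725106, plus strand), the eosinophil growth factor, was at 276, 281 and 289 CPM in base medium and at 1162, 1273, 1635 and 921 CPM with CGRP. The base medium libraries were close to each other, and the lowest CGRP library lay above all of them, a 4.42-fold difference (2.14 ± 0.27, adjusted p = 7.5e-05). Il13, which drives mucus and smooth muscle responses, was at 29.6, 16.6 and 18.7 CPM in base medium and at 8.06, 20.6, 12.1 and 7.98 CPM with CGRP. Its ranges overlapped through CGRP replicate 2 (−0.83 ± 0.37, adjusted p = 0.33). Il4 was at 41.7, 22 and 40.0 CPM in base medium and at 26.7, 41.5, 38.5 and 33.4 CPM with CGRP (0.01 ± 0.37, adjusted p = 1.0), and its sign depended on the processing. Of 21 tested type 2 cytokine and ILC2 product genes 3 rose and 0 fell, against 1.06% and 0.396% of all genes. The counts were the same without any 1 CGRP library, 2 rose without any 1 base medium library, and the median log2 fold change was 0.24. The third, beside Il5 and Areg, was Furin, a protease that matures secreted proteins, at 416, 463 and 335 CPM in base medium and 1255, 934, 863 and 978 CPM with CGRP (1.32 ± 0.26, adjusted p = 0.0063, and 0.067 without base medium replicate 3). The call of Areg was lost without base medium replicates 1 and 2, as given above. Csf2 (−0.34, adjusted p = 0.75), Il9 (−0.11, 0.96) and Il6 (−0.26, 0.88) did not pass.

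**Figure D3:**
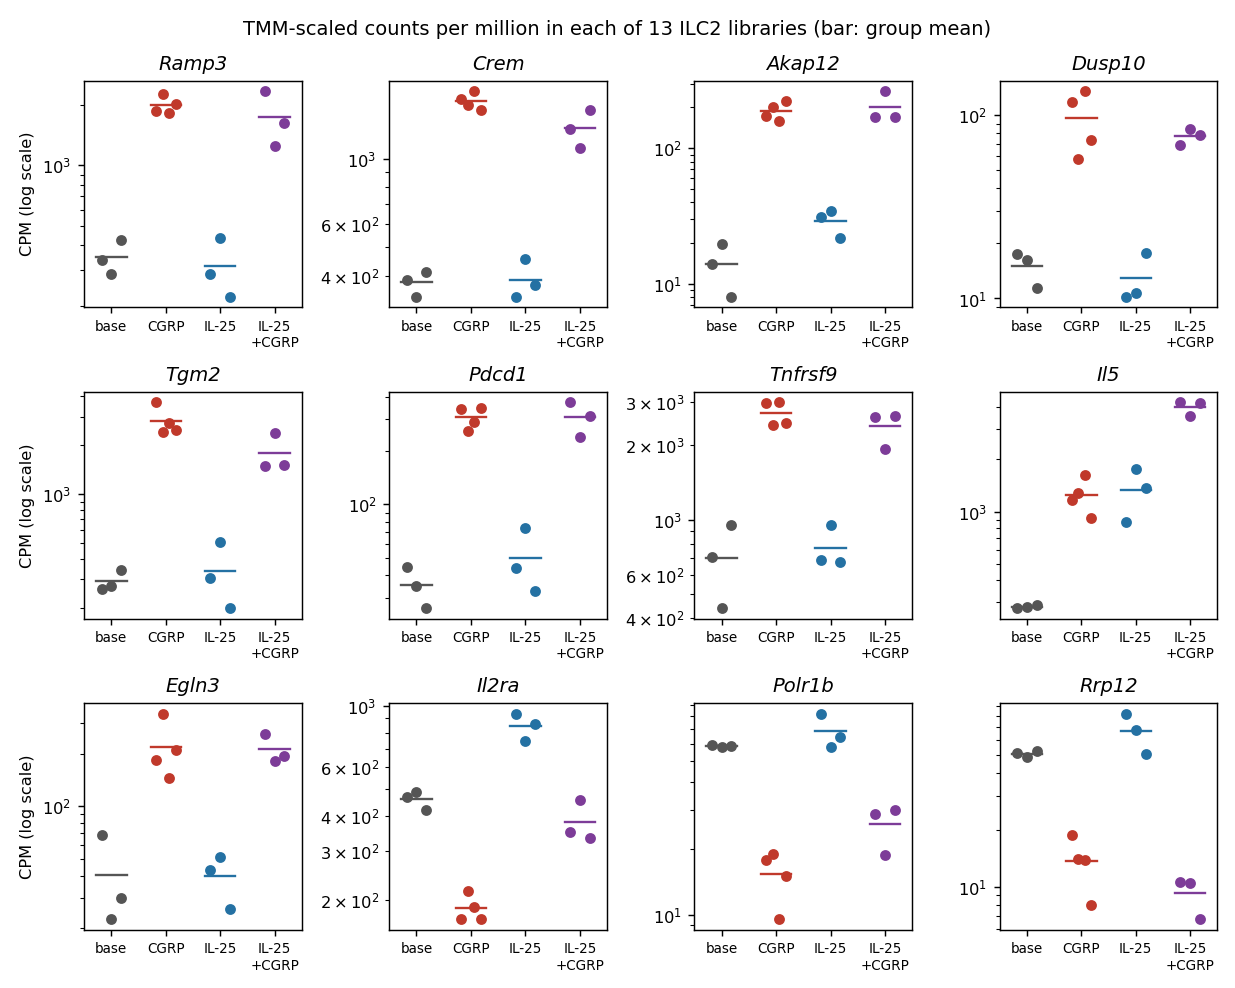
Each dot is the CPM of 1 library on a log axis, by group (base medium, CGRP, IL-25, IL-25 with CGRP), and bars are group means, for 12 genes described in the text. For Ramp3, Crem, Tgm2 and Pdcd1 the 4 CGRP libraries lie above all base medium and all IL-25 libraries, Il5 is higher in each treated group than in base medium, and Il2ra, Polr1b and Rrp12 are lower with CGRP.

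Of the 3 chains of the IL-2 receptor, 1 fell, 1 rose and 1 did not pass. Il2ra (chr2:11642807-11693193, plus strand), the α chain that gives high affinity, fell from 471, 489 and 423 CPM to 170, 216, 189 and 170 CPM (−1.31 ± 0.22, adjusted p = 0.0019), in every leave-one-out fit. Il2rb, the β chain, was at 247, 337 and 302 CPM in base medium and at 730, 478, 768 and 506 CPM with CGRP (1.07 ± 0.26, adjusted p = 0.034). Il2rg, the common γ chain, did not pass (0.83, adjusted p = 0.13), nor did Il7r (0.10, 0.91). Ifngr1, the ligand-binding chain of the interferon-γ receptor, went from 488, 575 and 578 CPM to 1898, 910, 1830 and 1243 CPM (1.43 ± 0.26, adjusted p = 0.0042). Of 23 tested cytokine receptor genes 2 rose and 1 fell, against 1.06% and 0.396% of all genes. The counts were the same without CGRP replicate 2, and 1 rose without any 1 of the base medium libraries or CGRP replicate 1. Among genes downstream of STAT5, which the IL-2 and IL-7 receptors activate, Osm and Socs2 rose and Il2ra fell. These were 3 of 17 tested, against 1.46% of all genes called in either direction, and 1 rose without base medium replicate 1 or 2. Osm, an IL-6 family cytokine, went from 37.3, 34.6 and 51.1 CPM to 142, 151, 198 and 169 CPM (2.00 ± 0.32, adjusted p = 0.0011). Socs2, a feedback inhibitor of cytokine receptors, went from 180, 173 and 229 CPM to 447, 485, 420 and 411 CPM (1.18 ± 0.24, 0.011). Cish, another feedback gene of STAT5, had a log2 fold change of 0.29 (adjusted p = 0.69). Ifngr1 and Osm kept their calls in every leave-one-out fit. Socs2 lost it without base medium replicates 1 and 2 (0.079 and 0.12), and Il2rb without any of the 3 base medium libraries or CGRP replicate 1 or 3 (0.085 to 0.19).

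Of 23 tested ILC2 identity genes 1 rose and 2 fell, against 1.06% and 0.396% of all genes. The counts were 1 and 1 without CGRP replicate 2, 0 rose without base medium replicate 1 or 2 or CGRP replicate 1 or 3, and the median log2 fold change was 0.10. Gata3, the lineage-defining transcription factor, was at 1076, 1148 and 1315 CPM in base medium and at 2227, 2605, 2759 and 2118 CPM with CGRP (1.04 ± 0.24, adjusted p = 0.026). The groups did not overlap, but the call was lost without any of the base medium libraries (0.081 to 0.19) and without CGRP replicate 1 (0.061) or 3 (0.063). Gfi1, a transcriptional repressor that ILC2s require, was low throughout, at 16.2, 33.7 and 13.6 CPM in base medium and 4.18, 0.822, 6.71 and 2.42 CPM with CGRP (−2.56 ± 0.62, adjusted p = 0.035), and its call was lost without any of the base medium libraries or CGRP replicate 1, 2 or 4 (0.054 to 0.24). The other gene that fell was Il2ra. The IL-25 receptor chain Il17rb was at 294, 257 and 326 CPM in base medium and at 574, 498, 568 and 441 CPM with CGRP, with no overlap, and missed the threshold (0.83 ± 0.23, adjusted p = 0.065) except with DESeq2 (0.0015). The IL-33 receptor Il1rl1 had overlapping ranges, 150 to 214 CPM and 117 to 372 CPM (0.37 ± 0.32, adjusted p = 0.71). So had Klrg1, the receptor by which the cells were sorted, at 327 to 430 CPM and 391 to 642 CPM (0.43 ± 0.27, 0.56).

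Among receptors that restrain or co-stimulate lymphocytes, Pdcd1 and Tnfrsf9 rose. Pdcd1 (chr1:94038305-94052553, minus strand), which encodes the inhibitory receptor PD-1, was at 44.7, 35.1 and 26.2 CPM in base medium and at 344, 256, 288 and 347 CPM with CGRP, an 8.76-fold difference (3.13 ± 0.32, adjusted p = 3.6e-06). Tnfrsf9, the co-stimulatory receptor 4-1BB, went from 710, 439 and 956 CPM to 2972, 2411, 2982 and 2453 CPM (1.95 ± 0.27, adjusted p = 0.00023). Both were called in every leave-one-out fit. Tnfrsf18, the co-stimulatory receptor GITR, went from 838, 566 and 767 CPM to 1378, 2553, 1288 and 1647 CPM (1.25 ± 0.29, adjusted p = 0.025), and lost its call without any of the base medium libraries or CGRP replicate 2 or 4 (0.051 to 0.22). These were the 3 of 18 tested inhibitory and co-stimulatory receptor genes that rose, and 0 fell, against 1.06% and 0.396% of all genes. Without CGRP replicate 2 or 4 or any 1 of the base medium libraries 2 rose. Ctla4 (0.41, adjusted p = 0.95), Tigit (0.48, 0.61), Cd274 (0.63, 0.60) and Tnfrsf4 (−0.16, 0.96) did not pass. Among 28 tested chemokine, chemokine receptor and homing genes, 2 rose and 0 fell, against the same shares of all genes. The counts were the same without CGRP replicate 2, and 0 rose without base medium replicate 2. The chemokine receptor Ccr8 went from 188, 129 and 183 CPM to 508, 595, 409 and 453 CPM (1.56 ± 0.28, adjusted p = 0.0027, and 0.056 without base medium replicate 2). Gpr65 went from 86.7, 68.3 and 99.6 CPM to 238, 183, 288 and 210 CPM (1.43 ± 0.25, 0.0027, and 0.060 without base medium replicate 2).

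Of 23 tested Myc targets and ribosome biogenesis genes, 3 fell and 0 rose, against 0.396% of all genes called lower. The count was 3 without CGRP replicate 2, 1 without base medium replicate 3, 2 without base medium replicate 1 or 2 or CGRP replicate 1 or 4, and 4 without CGRP replicate 3. A negative log2 fold change was found for 21 of 23, the median was −0.68, and for 12 of 23 all CGRP libraries lay below all base medium libraries, against 5.45% of all genes. Polr1b (chr2:129100995-129126594, plus strand), the second-largest subunit of RNA polymerase I, which transcribes ribosomal RNA, fell from 59.1, 58.0 and 58.6 CPM to 17.8, 18.9, 9.52 and 15 CPM (−1.93 ± 0.32, adjusted p = 0.0015). Nop16, a nucleolar protein of the large ribosomal subunit's assembly, fell from 87.2, 88.5 and 114 CPM to 39.5, 27.3, 31.2 and 31.2 CPM (−1.58 ± 0.31, adjusted p = 0.0067, and 0.059 without base medium replicate 3). Cad, the enzyme that starts pyrimidine synthesis, fell from 64.5, 98 and 59.9 CPM to 34.9, 29.6, 24.9 and 35.1 CPM (−1.25 ± 0.32, adjusted p = 0.047), and lost its call when any of the 7 libraries was left out (0.064 to 0.27). Myc itself did not pass (−0.51, adjusted p = 0.54), nor did Ncl (−0.46, 0.44) or Npm1 (−0.38, 0.60). The genes Rrp12, Mdn1, Utp20 and Nat10 are not in the list. They are among the 14 with the lowest log2 fold changes of those called lower without overlap, and their grouping here was made after their values were seen and adds nothing to the list's count. Rrp12, needed for export of both ribosomal subunits, fell from 50.7, 48.5 and 52.2 CPM to 18.8, 14, 13.8 and 7.98 CPM (−1.88 ± 0.35, adjusted p = 0.0039). Mdn1, an AAA ATPase that remodels the large subunit, fell from 186, 258 and 215 CPM to 38.4, 52.4, 95.2 and 72.0 CPM (−1.77 ± 0.33, 0.0042). Utp20, a component of the small subunit processome, fell from 43.7, 40.5 and 38.3 CPM to 4.96, 4.93, 21.2 and 4.59 CPM (−2.19 ± 0.46, 0.011). Nat10, an acetyltransferase of ribosomal RNA, fell from 45.5, 61.1 and 38.8 CPM to 11, 9.66, 19.7 and 7.01 CPM (−2.03 ± 0.44, 0.015). Polr1b, Rrp12, Mdn1 and Utp20 kept their calls in every leave-one-out fit, and Nat10 lost it without base medium replicate 2 (0.094) or CGRP replicate 4 (0.060). The share of counts from Rn45s, itself the ribosomal RNA precursor, lay below the lowest base medium library (69.9%) in 3 of 4 CGRP libraries, at 69.1%, 57.5% and 59.0% in replicates 1 to 3, and was 71.7% in replicate 4, and how far it moves with these genes was not tested.

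The list counts of this paragraph stand against 1.06% of all genes called higher and 0.396% called lower. Genes of hypoxia and glycolysis held 3 that rose and 0 that fell of 23 tested, with a median log2 fold change of 0.48, and 1 rose without base medium replicate 2, and 2 without base medium replicate 1 or 3 or CGRP replicate 1, 2 or 4. Egln3, a prolyl hydroxylase that marks HIF for degradation, went from 68.1, 22.5 and 30.0 CPM to 183, 340, 145 and 210 CPM (2.44 ± 0.38, adjusted p = 0.00069). Hif1a, the oxygen-regulated transcription factor, went from 330, 267 and 340 CPM to 739, 611, 685 and 693 CPM (1.13 ± 0.23, 0.0081, and 0.12 without base medium replicate 2). Gapdh, a glycolytic enzyme, went from 1267, 1164 and 1511 CPM to 2622, 2767, 2299 and 2544 CPM (0.96 ± 0.24, 0.039), and lost its call without any of the base medium libraries or CGRP replicate 1, 2 or 4 (0.055 to 0.28). In the unfolded protein response 2 of 18 rose, 0 fell and 15 had a positive sign (median 0.75). Here 3 rose without CGRP replicate 2, 0 without base medium replicate 1 or 2, and 1 without base medium replicate 3 or CGRP replicate 1 or 4. Chac1, an enzyme that degrades glutathione, went from 10.0, 6.29 and 11.6 CPM to 44.0, 18.7, 48.9 and 52.0 CPM (2.11 ± 0.44, adjusted p = 0.011, and 0.056 and 0.11 without base medium replicates 1 and 2). Creld2, a chaperone of the endoplasmic reticulum, had a log2 fold change of 1.04 ± 0.26 (0.036) and lost its call when any of the 7 libraries was left out (0.054 to 0.24). Of 13 heat shock chaperones 2 rose and 0 fell, while 3 rose without CGRP replicate 2, 0 without base medium replicate 1 or 2, and 1 without base medium replicate 3 or CGRP replicate 1, 3 or 4. Those called with all libraries were the co-chaperones Dnajb1 (1.37 ± 0.31, adjusted p = 0.022), lost without base medium replicates 1 and 2 and CGRP replicate 3 (0.12, 0.16 and 0.051), and Dnaja1 (1.01 ± 0.22, 0.019), lost without any of the base medium libraries or CGRP replicate 1 or 4 (0.053 to 0.15). Of 27 cell cycle genes 1 was called, the cyclin-dependent kinase inhibitor Cdkn1a, which went from 182, 139 and 196 CPM to 372, 473, 314 and 401 CPM (1.18 ± 0.27, 0.022), lost without any of the base medium libraries or CGRP replicate 1 or 4 (0.053 to 0.21). Of 22 genes of cholesterol and fatty acid synthesis 1 was called, the fatty acid synthase Fasn, which was lower, at 230, 197 and 145 CPM in base medium and 77.8, 114, 58.9 and 82.9 CPM with CGRP (−1.20 ± 0.31, 0.047), lost without any of the 3 base medium libraries or CGRP replicate 1, 3 or 4 (0.062 to 0.21). Without CGRP replicate 2 this list held 2 called higher and 1 called lower.

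Several lists held few or no called genes. Of 24 immediate early genes 1 was called higher, Dusp1, against 1.06% of all genes. The count was 3 without CGRP replicate 2, 0 without base medium replicate 2 or 3, and 4 with DESeq2. By unadjusted p, 11 of the 24 were under 0.05, as were 1566 of all 12618 genes, and the list's median log2 fold change was 0.55. All CGRP libraries lay above all base medium libraries for 7 of the 24 and below them for 2, against 6.99% and 5.45% of all genes. Of 13 genes for regulators of G-protein signalling 1 was called higher, Rgs2, and 0 without base medium replicate 2. DESeq2 called 2 of the 13 higher and 1 lower, and 5 were under an unadjusted p of 0.05 by edgeR. Of the 18 NF-kB feedback genes, the 14 of the BCL2 family, the 15 Txnip and arrestin-domain genes, the 15 FOXO-linked genes, the 12 interferon response genes and the 17 circadian and glucocorticoid-linked genes, 0 were called in either direction by edgeR, with 2, 1, 1, 4, 1 and 1 under an unadjusted p of 0.05. DESeq2 called 1, 0, 0, 3, 1 and 1 of them higher and 0 lower, in the same order. Over all 12618 genes DESeq2 called 511 in either direction, against 184 by edgeR. Without CGRP replicate 2, 1 interferon response gene was called higher and the others of these 6 lists still held 0.

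**Figure D4:**
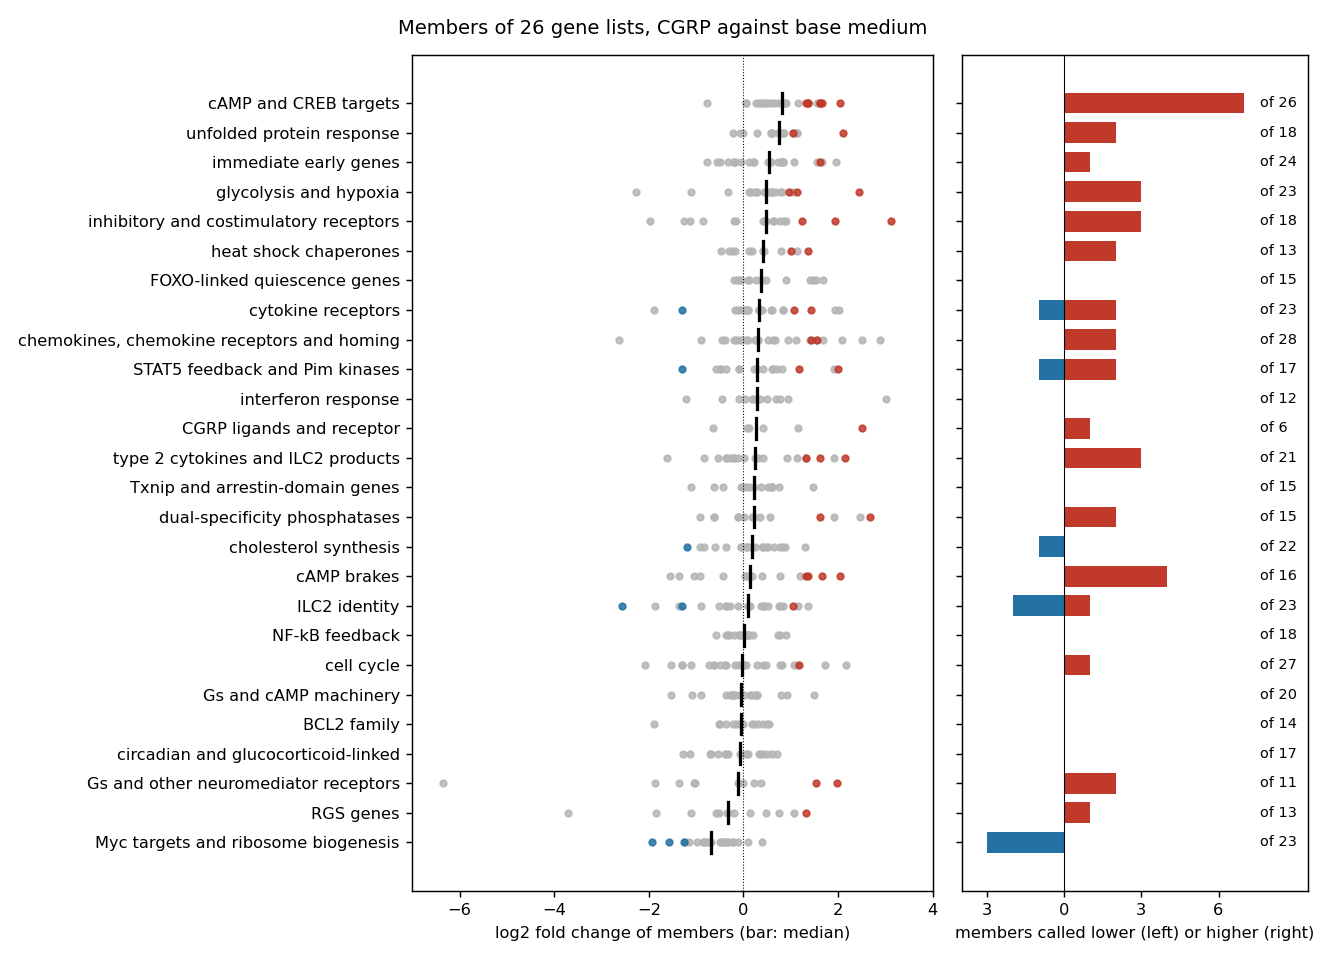
Left, log2 fold changes of the tested members of 26 gene lists (points; red called higher, blue called lower, grey not called), with the list median as a bar, ordered by median. Right, the number of members called higher or lower, with the number tested. The cyclic AMP and CREB targets are at the top with 7 of 26 called higher, and the Myc target and ribosome biogenesis genes at the bottom with 3 of 23 called lower.

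Among the 14 genes with the highest log2 fold changes of those called higher without overlap, Akap12, Pdcd1, Dusp10, Ramp3 and Arl4d are described above. Tgm2 (chr2:158116402-158146436, minus strand), a transglutaminase that crosslinks proteins, was at 261, 271 and 340 CPM in base medium and at 3672, 2403, 2740 and 2494 CPM with CGRP (3.28 ± 0.32, adjusted p = 2.6e-06). Palld, an actin-bundling protein, was at 1.8, 5.84 and 0.819 CPM and at 37.0, 35, 27.5 and 21.8 CPM (3.56 ± 0.60, adjusted p = 0.0018). Both were called in every leave-one-out fit. The other 7 were at under 7 CPM in every base medium library. Acta2, smooth muscle actin, was at 203 CPM in CGRP replicate 3 and at 2.26 to 3.87 CPM in the other 3, so its log2 fold change of 5.73 (adjusted p = 0.039) fell to 1.79 without that library (0.64), and its call was also lost without any base medium library (0.13 to 0.17). Nkx2-3, a homeobox factor of gut and spleen stroma, was at 0 to 4.05 CPM in base medium and 19.4 to 40.5 CPM with CGRP (4.29 ± 0.99, adjusted p = 0.024), and was lost without base medium replicate 1 or 3 or CGRP replicate 4 (0.060 to 0.097). Nrp2, a semaphorin receptor, was at 0.491 to 6.29 CPM and 17.1 to 46.5 CPM (3.26 ± 0.69, adjusted p = 0.013), lost without base medium replicates 1 and 3 (0.073 and 0.080). Oas1a, an interferon-induced gene, was at 0.164 to 1.35 CPM and 7.75 to 17.6 CPM (4.34 ± 1.05, 0.035), lost without any of the base medium libraries or CGRP replicate 4 (0.078 to 0.17). Actc1, cardiac actin, was at 0 to 0.655 CPM and 3.14 to 20.6 CPM (4.30 ± 1.00, 0.025), lost without any of the base medium libraries or CGRP replicate 2 (0.060 to 0.12). Zdhhc23 and Agpat9, an S-palmitoyltransferase and an acyltransferase of lipid synthesis, were called at log2 fold changes of 2.72 ± 0.68 (0.039) and 3.16 ± 0.80 (0.046), lost when any of the 7 libraries was left out for Zdhhc23 (0.056 to 0.19) and for Agpat9 without base medium replicates 2 and 3 or any CGRP library (0.050 to 0.22).

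Of the 14 genes with the lowest log2 fold changes of those called lower without overlap, Tanc2, a scaffold protein of synapses, fell from 132, 143 and 78.9 CPM to 20.5, 32.7, 24.7 and 38.2 CPM (−2.03 ± 0.31, adjusted p = 0.00050), in every leave-one-out fit. Scarf1, a scavenger receptor, had 53 counts over the 3 base medium libraries (2.57, 2.70 and 6.06 CPM) and 0 over the 4 CGRP libraries (adjusted p = 0.044, and 0.062 to 0.16 when any of the 7 libraries was left out). Its pooled counts were at least 29.0-fold lower against a floor of 3 counts over the group, a bound that leaves out the spread between libraries. Btg3, an antiproliferative gene outside these 14 because its ranges overlap, was at 22.1, 0 and 21.5 CPM in base medium and at 0 in all 4 CGRP libraries (adjusted p = 0.017). Its pooled counts were at least 119-fold lower on the same floor, which again leaves out the spread between libraries. Base medium replicate 2 had no count of it either, and the call was lost without base medium replicate 1 (0.056) or 3 (0.062) and with DESeq2 (0.24). Klrg2 was at 3.86, 8.09 and 6.88 CPM and at 1.08, 0, 0 and 0.483 CPM (adjusted p = 0.044), lost without any of the base medium libraries or CGRP replicate 2, 3 or 4 (0.063 to 0.19). Usp40, a deubiquitinase, was at 30.9, 44.0 and 31.8 CPM and at 2.63, 4.52, 15.4 and 4.11 CPM (−2.42 ± 0.54, 0.020), lost without base medium replicate 2 or 3 or CGRP replicate 1 or 4 (0.059 to 0.10). Acaca, the acetyl-CoA carboxylase that feeds fatty acid synthesis, was at 34.2, 25.6 and 22.1 CPM and at 9.61, 3.70, 3.25 and 10.9 CPM (−1.99 ± 0.46, 0.025), lost without any of the base medium libraries or CGRP replicate 3 (0.060 to 0.14). Genes of mitochondrial proteins were Lars2, Atad3a and Htra2. Lars2, the mitochondrial leucyl-tRNA synthetase, was at 7575, 7896 and 8914 CPM in base medium and at 2364, 3117, 1073 and 3312 CPM with CGRP (−1.72 ± 0.42, adjusted p = 0.038). The Rn45s share was lowest in CGRP replicates 2 and 3 (57.5% and 59.0%), and the part of ribosomal RNA content in this result was not tested. Lars2 lost its call without any of the base medium libraries or CGRP replicate 1, 3 or 4 (0.054 to 0.13). Atad3a, of the mitochondrial nucleoid, had a log2 fold change of −1.75 ± 0.36 (0.011), lost without base medium replicates 2 and 3 (0.060 and 0.11), and the protease Htra2 −1.73 ± 0.40 (0.023), lost without base medium replicates 1 and 3 and CGRP replicate 4 (0.11, 0.11 and 0.071).

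The genes called with CGRP alone were then read in the libraries with IL-25, where IL-25 with CGRP was compared with IL-25. No library is shared between the groups of this contrast and those of the comparison above. All 13 libraries entered 1 fit, however. The filter, size factors and spread by which the genes were called therefore drew on the IL-25 libraries too. The same direction was found for 131 of the 134 genes called higher, where 49.6% of all genes tested had that sign, and for 49 of the 50 called lower, where 50.4% had it. In these libraries 62 genes were called higher (0.491%) and 16 lower (0.127%). Of them 51 were among the 134, which is 38.1% of the 134 and 82.3% of the 62, and 6 were among the 50, which is 12% of the 50 and 37.5% of the 16. The ranges did not overlap in that direction for 107 of the 134, against 8.67% of all genes, and for 41 of the 50, against 8.77%. The median log2 fold change of the 134 was 1.56 with CGRP alone, the values by which they were chosen, and 1.18 with IL-25, and that of the 50 was −1.47 and −1.10. Across genes, which are not independent replicates, the 2 log2 fold changes correlated at r = 0.818 over the 184 called genes and at r = 0.169 over all 12618. Akap12 was at 31.0, 34.4 and 21.8 CPM with IL-25 and at 170, 263 and 171 CPM with IL-25 and CGRP (2.79 ± 0.33, adjusted p = 7.5e-05). Ramp3 was at 287, 434 and 220 CPM and at 2340, 1244 and 1619 CPM (2.47 ± 0.30, 7.5e-05), and Crem at 338, 455 and 372 CPM and at 1258, 1091 and 1468 CPM (1.71 ± 0.24, 0.00036). Il5 was at 875, 1767 and 1367 CPM with IL-25 and at 4272, 3560 and 4215 CPM with IL-25 and CGRP (1.59 ± 0.28, adjusted p = 0.0033). Palld showed the highest of these differences, from 0, 0.289 and 0.125 CPM to 24.0, 29.2 and 28.3 CPM (adjusted p = 6.8e-05). Among genes called lower with CGRP alone, Rrp12 was at 82.4, 67.7 and 50.5 CPM and at 10.6, 10.4 and 6.70 CPM (−2.86 ± 0.41, 0.00038), and Il2ra at 937, 746 and 861 CPM and at 353, 458 and 334 CPM (−1.15 ± 0.24, 0.019). The 4 genes with the other sign were Oas1a (−0.27), Arl4d (−0.09) and Atp6v0c (−0.19), called higher with CGRP alone, and Scarf1 (0.77), called lower, and none of the 4 was called with IL-25 (adjusted p 0.90 to 0.98).

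**Figure D5:**
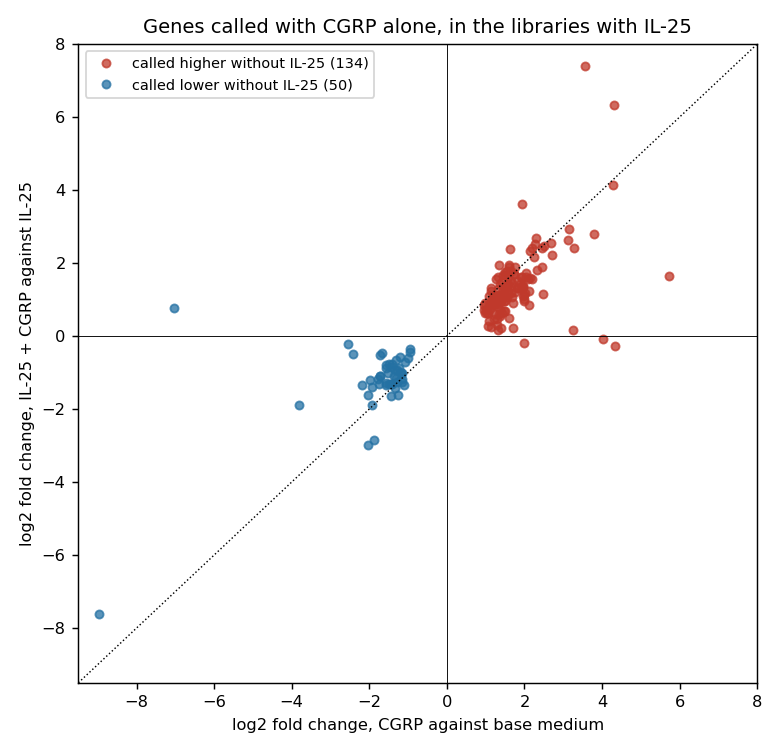
Each point is 1 of the 184 genes called with CGRP alone, and the x axis is its log2 fold change there. The y axis is its log2 fold change of IL-25 with CGRP against IL-25. These groups are outside the first contrast, but their libraries entered the same fit and its estimate of spread. Red points (134, called higher) lie above 0 on the y axis except 3, and blue points (50, called lower) lie below 0 except 1. The dotted line marks equal values.

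Whether the response to CGRP differs in the presence of IL-25 was tested directly as the interaction. No gene passed (0 of 12618, 0%, by edgeR; lowest adjusted p = 0.658), DESeq2 also gave 0, edgeR with no filter on low counts gave 18, and 554 genes were under an unadjusted p of 0.05, 23 of them among the 184. The interaction was −0.05 ± 0.39 for Ramp3, −0.33 ± 0.32 for Crem, −0.51 ± 0.42 for Pdcd1, −0.56 ± 0.37 for Il5 and 0.74 ± 0.46 for Areg, on the log2 scale. With standard errors of 0.32 to 0.46 for these 5 genes, a modest difference between both responses was not detectable.

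CGRP and IL-25, each added alone, differed in 349 genes (2.77%), 185 higher with CGRP (1.47%) and 164 lower (1.3%). Il13 was at 101, 180 and 173 CPM with IL-25 and at 7.98 to 20.6 CPM with CGRP, so CGRP libraries lay below all IL-25 libraries (−3.63 ± 0.37, adjusted p = 5.0e-06). Il5 did not differ past the threshold between the 2 agents, at 875 to 1767 CPM with IL-25 and 921 to 1635 CPM with CGRP (−0.10 ± 0.25, adjusted p = 0.93). Il2ra was lower with CGRP than with IL-25 (−2.19 ± 0.23, 5.0e-06), and Il17rb higher (1.45 ± 0.23, 0.00047). Akap12, Tgm2, Pdcd1, Ramp3 and Crem were higher with CGRP by 2.71 ± 0.32, 3.07 ± 0.32, 2.63 ± 0.31, 2.67 ± 0.29 and 2.01 ± 0.24 on the log2 scale, with adjusted p of at most 1.4e-05. Furin did not pass (0.24 ± 0.25, adjusted p = 0.78). The comparison shares the CGRP libraries with CGRP against base medium, so overlap between their calls is not given. The highest and lowest log2 fold changes of this comparison belonged to genes with few counts in at least 1 of the groups. At the top were Lyz1, with 852 counts in CGRP replicates 2 and 4 and 0 with IL-25, Palld, Cd14, Acta2 and Actc1. At the bottom were Lcn2, Aqp1, Emcn, Btg3 and Tshz2, with 84 to 196 counts over the IL-25 libraries and 0 with CGRP. Their pooled counts were at least 37.0-fold to 86.4-fold lower against a floor of 3 counts over the group, with the spread between libraries left out. Lyz1 is a lysozyme gene of Paneth cells, and Cd14 is a surface receptor of macrophages. Cd14 was at 67.6 and 36.5 CPM in CGRP replicates 2 and 4 and at most 4.49 CPM in the base medium libraries. Some marker sums also differed between these groups without overlap. Stromal and endothelial sums were 147 to 184 CPM with IL-25 and 48.5 to 66.6 CPM with CGRP. Epithelial sums were 172 to 263 CPM and 96.7 to 153 CPM, and mast cell sums 254 to 303 CPM and 145 to 189 CPM. ILC2 sums were 8617 to 11904 CPM and 12045 to 15404 CPM. The sums of the other lists overlapped. The part of other cell types in the 349 genes was not tested. The count of 349 was 177 without IL-25 replicate 1 and 197 without IL-25 replicate 3.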

How the data were processed

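Bulk RNA was read from 13 cultures of sorted ILC2s with Smart-seq2, which marks neither strand nor molecules, per the labels. The deposited values are expected counts per gene. The submitters' processing notes name bcl2fastq, Bowtie2, RSEM, Cell Ranger and mm10, with no versions or roles. The expected counts were rounded, the ribosomal gene Rn45s was left out, and 12618 of 23420 genes passed edgeR's filter on low counts. All 13 libraries entered 1 edgeR quasi-likelihood fit (edgeR 4.0.16, R 4.3.3) with TMM factors, 9 residual degrees of freedom and Benjamini-Hochberg adjustment over all genes tested, called at 0.05. Standard errors are the log2 fold change divided by the square root of F. The interaction is the CGRP effect with IL-25 minus that without. The fit was tested on simulated data, with 11244 genes fitted and the spread estimated from the libraries used here. The changed genes were drawn only from those above a floor in mean CPM. There the fit called 12% of 100 genes with a true log2 fold change of 1 in size, and 74% of 100 with one of 2. Of its 89 calls 3 were false. These rates do not cover genes with fewer counts than that floor. A gene described as not passing may therefore have changed. DESeq2 1.42.0, other size factors, other filters, Rn45s kept, only the groups compared, a replicate block and each library left out were alternatives.

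Genes named are the 14 highest and 14 lowest log2 fold changes among called genes whose ranges do not overlap, every called list member, 14 genes named in every case, and the 5 highest and 5 lowest of CGRP against IL-25. Single members that were not called, and Tubb2a, Tinf2, Atp6v0c and the genes of the other observations, were chosen after their values were seen. The members and lists were chosen with earlier results of these data known. Gene positions and exonic overlaps are from GENCODE M21 (mm10), and promoters from RefSeq (GRCm38.p6). Figures were drawn with matplotlib 3.10.9. The single-cell libraries of the series were not used here. A result on 1 receptor gene is not reported here.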

Additional observations from a re-analysis of the deposited data

Results flagged for a closer look

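In the 4 CGRP libraries, 113 values were examined for 1 library far from the other 3, and 13 were found. The cutoff gives about 1 in 20 for independent, normally distributed values. The values here are related, and many of the genes were named for their values in these libraries, so the 13 cannot be compared with that rate. CGRP replicate 2 was the distant library in 8 of the 13. It was high for Hs3st1, a heparan sulfate sulfotransferase (1367 CPM against 1122 to 1160 CPM), Lmo4, a transcriptional cofactor (2011 CPM against 1289 to 1403 CPM), Hilpda, a lipid droplet protein (947.2 CPM against 467 to 516.6 CPM), and Lyz1 (163.9 CPM against 0 to 13.3 CPM). It was also high for the summed macrophage and dendritic cell markers (384.7 CPM against 78.55 to 115.8 CPM) and the summed epithelial markers (153 CPM against 96.73 to 98.11 CPM). It was low for Actg1, cytoplasmic γ-actin (10220 CPM against 21300 to 22170 CPM), and for Areg (43.18 CPM against 76.57 to 81.58 CPM).

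CGRP replicate 3 was high for Acta2 (202.6 CPM against 2.262 to 3.868 CPM), Utp20 (21.21 CPM against 4.593 to 4.96 CPM) and Usp40 (15.36 CPM against 2.635 to 4.523 CPM). CGRP replicate 4 was low for Ikzf3, an Ikaros family transcription factor (490.5 CPM against 732.4 to 770.6 CPM), and CGRP replicate 1 for the summed RNA quality genes (7752 CPM against 10630 to 10970 CPM).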

How the results depend on the processing

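For CGRP against base medium, the 184 genes called became 511 with DESeq2, 336 with no filter on low counts and 106 with the replicate block, and 64 (without base medium replicate 2) to 207 (without CGRP replicate 2) with 1 library left out. Of the 184, 181 were also called by DESeq2. With CGRP added to IL-25, the 78 became 303 with DESeq2, 236 with no filter and 163 with only the groups compared, and 37 (without IL-25 replicate 1) to 80 with 1 library left out, 50 without replicate 3 of IL-25 with CGRP. For CGRP against IL-25, the 349 became 584 with DESeq2 and 219 with the replicate block, and 177 to 370 with 1 library left out. The interaction gave 0 genes except with no filter on low counts, where it gave 18. The cause of these moves was not tested. Of 61 called genes named by rule, all kept their direction in the 15 alternatives that gave a value, 18 were called in each, and 43 lost the call in at least 1. The filter of 5 CPM in 3 libraries gave a value for 59 of the 61. The sign of Calcrl turned without base medium replicate 1, CGRP replicate 2 or CGRP replicate 3, and its log2 fold change ranged from −0.0958 to 0.281 with 1 library left out. That of Il4 turned with DESeq2 (−0.0099), RLE factors (−0.0093), upper-quartile factors (−0.026), the 5 CPM filter (−0.034) and only the groups compared (−0.0042), and without base medium replicate 2 or CGRP replicate 2 or 3, with a range of −0.265 to 0.162 when 1 library was left out. Same-numbered base medium and CGRP libraries correlated at −0.131 to 0.0548 over 3 pairs, in their deviations from the group means. Of the base medium libraries 1 correlated best with its own number. With 3 pairs these values cannot decide whether the numbers pair the samples. The replicate block gave 59 genes with CGRP added to IL-25 and 0 for the interaction. Base medium replicate 2 was the shallowest of the 7 libraries, at 1966212 counts.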

Other observations

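The genes here lie outside the lists and were chosen after their values were seen. Cytoskeletal genes were among those called higher with CGRP, beside Palld and Tubb2a. Actg1, cytoplasmic γ-actin, went from 4853, 5753 and 6443 CPM to 22167, 10221, 21303 and 22063 CPM (log2 fold change 1.74 ± 0.28, adjusted p = 0.00093). Pdlim1, an adaptor of actin stress fibres, went from 78.7, 53.5 and 83.4 CPM to 361, 362, 248 and 314 CPM (2.15 ± 0.31, 0.00030), and these 2 kept their calls in every leave-one-out fit. The α-tubulin Tuba1a (1.15 ± 0.24, 0.013), the β-tubulin Tubb4b (1.24 ± 0.28, 0.024) and the tropomyosin Tpm4 (1.21 ± 0.28, 0.023) were also called higher, and each lost its call without any of the base medium libraries (0.052 to 0.22), Tubb4b also without CGRP replicates 1 and 4 (0.062 and 0.060) and Tpm4 without CGRP replicates 1 and 3 (0.082 and 0.051). Actg1, Tuba1a, Tubb4b, Tpm4, Grwd1 and Noc2l share exonic bases with another gene.

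Other genes called higher in every leave-one-out fit were the receptor tyrosine kinase Ret, at 72.3, 74.6 and 81.4 CPM in base medium and 326, 406, 291 and 263 CPM with CGRP (2.08 ± 0.27, adjusted p = 8.7e-05), Serpinb9, an inhibitor of granzyme B (1.89 ± 0.27, 0.00023), Dgat1, an enzyme of triglyceride synthesis (1.98 ± 0.31, 0.00087), Hs3st1 (2.25 ± 0.27, 2.9e-05) and Lmo4 (2.20 ± 0.28, 8.7e-05). Hilpda (1.65 ± 0.32, 0.0062) lost its call without base medium replicate 2 (0.094). Of the Ikaros family, Ikzf3 rose (1.94 ± 0.26, 0.00013) and Ikzf1 fell (−1.24 ± 0.29, 0.025), the latter lost without any of the base medium libraries or CGRP replicate 1 or 4 (0.060 to 0.12).

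Ltb, lymphotoxin β, fell from 213, 284 and 304 CPM to 95.8, 113, 132 and 156 CPM (−1.11 ± 0.25, 0.019), lost without base medium replicates 2 and 3 and CGRP replicate 1 (0.090, 0.13 and 0.061), and Tnfrsf11a, the receptor RANK, fell from 56.1, 71.9 and 64.2 CPM to 27.9, 23.2, 28.6 and 34.1 CPM (−1.17 ± 0.28, 0.034), lost without every 1 of these libraries but CGRP replicate 4 (0.058 to 0.14). The ribosome assembly genes Noc2l (−1.57 ± 0.33, 0.011) and Grwd1 (−1.45 ± 0.33, 0.023) fell, Noc2l lost without base medium replicate 2 (0.14) and Grwd1 without base medium replicates 2 and 3 and CGRP replicate 3 (0.14, 0.090 and 0.057). So did Vars, the valyl-tRNA synthetase (−1.58 ± 0.31, 0.0062), lost without base medium replicate 2 (0.059), and Larp1, which binds mRNAs of ribosomal proteins (−1.19 ± 0.26, 0.015), lost without base medium replicate 1 and CGRP replicates 1 and 4 (0.14, 0.054 and 0.060).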
